A study of Mus musculus with 7 samples.

Results

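The genes described here encode the nuclear share of 2 machines of the mitochondrion: the mitochondrial ribosome (mitoribosome) and the respiratory chain with its ATP synthase. They were read in the transcriptomes of fully grown mouse oocytes with and without the histone methyltransferase SETD1B. Members were chosen by symbol, and earlier results of these data were known when the list was made. Mrpl and Mrps genes made up the mitoribosome. Nduf, Sdha to Sdhd, Uqcr, Cox4 to Cox8 and Atp5 genes made up the respiratory chain. Only rows with the transcript and the annotated gene on the same strand were used. Where a gene had several rows, the row with the highest mean over the 7 libraries was kept. The rule met 131 rows of the 33437 oocyte transcripts and gave 129 genes, since Mrps24 and Atp5o each had a second, weaker row. Of these, 51 belonged to the mitoribosome and 78 to the respiratory chain. The comparison was Setd1b cKO against Setd1b WT germinal vesicle (GV) oocytes of 21-day-old mice labelled C57BL6 (C57BL/6OlaHsd in the study's methods). The cKO libraries (n = 4) came from females labelled Setd1b floxed/floxed with Gdf9-Cre, which is active in oocytes from early follicle growth, and the WT libraries (n = 3) from females labelled Setd1b floxed/floxed without Gdf9-Cre. By these labels both groups carried the floxed alleles, while the study's methods also count females with Gdf9-Cre and a single recombined allele as WT. Each library came from 1 oocyte, and which oocytes shared a mother was not given in the sources used here, so the p-values measure the spread between these oocytes.

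The mitoribosome translates the few respiratory chain subunits that mitochondrial DNA encodes, and its own proteins are all nuclear products. The respiratory chain passes electrons from NADH (complex I) and succinate (complex II) through complex III to oxygen at complex IV, and ATP synthase (complex V) uses the resulting proton gradient. A growing oocyte builds up a very large stock of mitochondria, and the nuclear genes for these proteins are widely expressed housekeeping genes with CpG-rich promoters. Factors such as NRF1 and GABPA (an ETS protein) are known to bind many of those promoters. SETD1B writes H3K4me3, a mark of active promoters.

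The promoters of the members were rich in CpG and in the letters these factors recognise. RefSeq promoter stretches (GRCm38.p6, 250 bases before to 50 after the start) were matched for 105 of the 129 members. The median stretch held 19 CpG, against 7 over all 27025 genes with such a stretch. The NRF1 letters GCGCATGCG stood on either strand in 12 members (11.4%), against 1.81% of all genes. The ETS letters CCGGAAG stood in 31 (29.5%, against 9.12%), and the YY1 letters ATGGCGGC in 10 (9.52%, against 2.38%). By machine, the NRF1 letters were in 6.98% of the 43 matched mitoribosome genes and in 14.5% of the 62 matched respiratory chain genes, while the ETS letters were in 37.2% and 24.2%. None of the 3 was found in 59 members (56.2%), against 87.6% of all genes. These matches are descriptions of letters and show no binding. The stretches below end 1 base before the start and have NRF1 or ETS letters, on either strand, in capitals, and NRF1 matches that overlap on both strands form 1 longer run. Mrpl22, Mrpl32, Atp5g2 and Cox6a1 are shown as carriers of NRF1 letters, Uqcrh and Ndufaf1 as carriers of ETS letters only, and Mrpl20 and Ndufab1 as members with neither whose levels are described further on.
Mrpl22 (chr11:58171564-58171663, plus strand): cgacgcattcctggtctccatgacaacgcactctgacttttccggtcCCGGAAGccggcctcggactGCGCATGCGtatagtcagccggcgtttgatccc
Mrpl32 (chr13:14613038-14613137, minus strand): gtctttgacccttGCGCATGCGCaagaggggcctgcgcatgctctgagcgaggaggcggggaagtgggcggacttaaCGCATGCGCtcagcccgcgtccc
Atp5g2 (chr15:102671048-102671147, minus strand): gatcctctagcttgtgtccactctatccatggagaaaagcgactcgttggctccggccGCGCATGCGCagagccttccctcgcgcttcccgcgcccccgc
Cox6a1 (chr5:115348959-115349138, minus strand): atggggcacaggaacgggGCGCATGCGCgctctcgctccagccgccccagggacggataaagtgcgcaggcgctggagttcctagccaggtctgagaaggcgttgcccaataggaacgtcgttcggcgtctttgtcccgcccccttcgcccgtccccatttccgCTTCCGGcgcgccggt
Uqcrh (chr4:116075071-116075170, minus strand): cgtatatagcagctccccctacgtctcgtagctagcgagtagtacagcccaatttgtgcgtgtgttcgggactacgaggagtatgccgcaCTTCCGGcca
Ndufaf1 (chr2:119662835-119662934, minus strand): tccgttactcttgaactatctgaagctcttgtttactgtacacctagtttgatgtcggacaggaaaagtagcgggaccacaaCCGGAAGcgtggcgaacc
Mrpl20 (chr4:155802778-155802877, plus strand): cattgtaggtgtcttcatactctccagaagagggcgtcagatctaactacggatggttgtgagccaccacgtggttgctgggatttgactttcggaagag
Ndufab1 (chr7:122101849-122101948, minus strand): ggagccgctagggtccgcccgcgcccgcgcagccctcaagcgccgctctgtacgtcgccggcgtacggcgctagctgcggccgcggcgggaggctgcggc

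The libraries held 8582493 to 12972365 mapped reads, so 1 read was worth 0.0771 to 0.117 RPM (reads per 1000000 mapped reads). Reads outside the transcripts made up 13.2 to 16.4% in cKO and 9.57 to 9.90% in WT, a difference that divides the transcripts' RPM by unequal amounts. RPM values are shares of a library, so RNA per oocyte was not measured. The plus-strand transcript over the Setd1b gene (chr5:123142193-123168620) overlapped between genotypes, with 8.31, 16.7, 12.8 and 2.68 RPM in cKO replicates 1 to 4 and 17.7, 16.3 and 8.61 in WT replicates 1 to 3. It spans the gene and not only the deleted segment, and a minus-strand transcript runs across it, so it does not check the labels. Of 15 oocyte marker genes 14 were in the table, and all were tested. limma and voom called 0 of them, with 1 at an unadjusted p under 0.05 in limma. Of the 14, 12 lay below 0 with a median log2 fold change of -0.29, and their summed level was 17631 to 22777 RPM in cKO and 23725 to 29355 in WT, with no overlap. Granulosa markers summed to 160 to 190 RPM in cKO and 203 to 242 in WT over 18 of 22 genes. Of these, 8 were tested, 6 lay above 0 and Esr2, the most abundant, was lower in cKO (86.8 against 148 RPM, adjusted p 0.042 in limma). The stroma, blood and immune markers summed to 20.1 to 33.5 and 20.02 to 24.5 RPM over 13 of 16. Of the last 13 genes, 10 had a mean under 1 RPM and 3 were at 0 in every library, while Dcn and Cd68, 2 of the 3 tested, were higher in cKO. The part of these differences in the results was not tested. In cKO replicate 4 and WT replicate 3 the members stood apart from the other oocytes of the same genotype, and counts without that pair are given beside the main ones.

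The members were well expressed, and the respiratory chain stood above the mitoribosome. A transcript was tested if it reached 1 RPM in at least 3 of the 7 libraries. All 51 mitoribosome genes and 75 of 78 respiratory chain genes met this. The untested were Cox7a1, the heart and muscle isoform of a complex IV subunit, and the named pseudogenes Atp5c1-ps and Uqcrh-ps2. The tested members had a median of 88.9 RPM over the 7 libraries, with a range of 1.09 to 763 RPM, against a median of 8.83 RPM over all 18179 tested transcripts. Per kilobase of annotated RNA, the median mitoribosome gene had 39.1, 45.7 and 48.9 RPM in the WT libraries, and the median respiratory chain gene 110, 117 and 205. In cKO the values were 49.1 to 53.4 and 111 to 233 RPM per kilobase. The genotypes overlapped for the respiratory chain, while the mitoribosome medians did not overlap, with the highest WT and the lowest cKO value nearly equal. Summed, mitoribosome transcripts took 4399, 4618 and 6874 RPM in WT and 4915, 4497, 6004 and 7974 in cKO. Respiratory chain transcripts took 8285, 9015 and 15181 RPM in WT and 10202, 8889, 12026 and 18529 in cKO. In both genotypes the highest sum was that of the oocyte that stood apart.

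**Figure D1:**
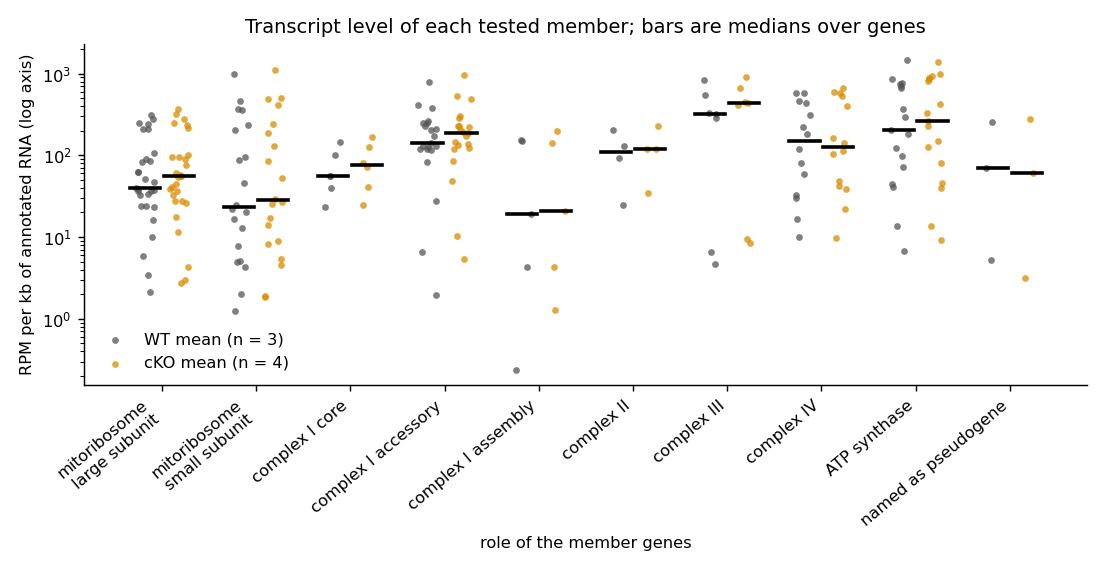
Mean level of each tested member in RPM per kilobase of annotated RNA (log axis), by role, for WT (grey, n = 3) and Setd1b cKO (orange, n = 4). Points are genes and bars are medians over genes. Complex III and ATP synthase genes sit highest and the genes for complex I assembly factors lowest, and WT and cKO overlap in every role.

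Complex III genes had the highest medians among the roles in every library, at 226, 239 and 476 RPM per kilobase in WT and 259 to 717 in cKO. ATP synthase genes had 159, 169 and 284 in WT, complex IV genes 139, 145 and 213, complex I accessory subunits 110, 126 and 210, and complex II genes 93.7 to 133. The ranges over WT oocytes of neighbours in this order overlapped down to complex II. In cKO, complex IV genes stood below complex I accessory subunits in each library, at 115, 95.9, 130 and 179 against 157, 130, 193 and 261. Complex I core subunits had 49.0 to 63.4 RPM per kilobase in WT, the large mitoribosomal subunit 39.1 to 48.9, the small subunit 21.6 to 28.7, and the complex I assembly factors 13.7 to 25.6. Of these last 4 roles, the ranges overlapped between the small subunit and the assembly factors. Individual genes spread far more widely than these medians. The most abundant per kilobase was Atp5e, the epsilon subunit of the ATP synthase rotor, at 378, 449 and 1051 RPM in WT. Mrps33, a small-subunit protein, followed with 498, 561 and 1081 RPM in WT, which is 995 RPM per kilobase on average. Highest in the other roles were Mrpl18 of the large subunit (311 RPM per kilobase in WT), Uqcrh, the acidic hinge protein of complex III (840), and Ndufa4 (784), which is named for complex I and now placed in complex IV. Over all 7 libraries Cox7a2 led complex IV by name (578 in WT, where Cox7c had 581), Sdhd, a membrane anchor of complex II, that complex (206), Ndufs7, an iron-sulphur subunit, the complex I core (145), and Ndufaf2 the assembly factors over all 7 libraries (149 in WT, where Ndufaf4 had 154).

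Loss of SETD1B was compared next. No mitoribosome gene and no respiratory chain gene passed an adjusted p of 0.05 in either direction (limma on log2(RPM + 1), Benjamini-Hochberg over all tested transcripts). Over all 18179 transcripts, 719 were higher in cKO (3.96%) and 399 lower (2.19%), and 5.71% passed with more than a 2-fold difference. limma-voom on the recovered read counts likewise called 0 members. At an unadjusted p under 0.05, limma gave 2 of 51 mitoribosome genes (Mrpl20 and Mrps6) and 2 of 75 respiratory chain genes (Ndufab1 and Ndufaf1), all 4 higher in cKO and none lower, and voom also gave 4. The background at that threshold was 14.2% higher and 7.52% lower, and 4 of 126 members lies under either share. This count depended on the oocytes entered and on the scaling. Without WT replicate 3 it was 14, all higher in cKO, against 13.6% of all transcripts higher in that fit. Without both cKO replicate 4 and WT replicate 3 it was 23, all higher, which lies above the 16.5% of all transcripts higher in that fit. Without cKO replicate 4 it was 6 higher (16.1% of all transcripts) and 2 lower, and with each library centred on its median transcript 3 higher (9.68%) and 2 lower. Scaling to reads within transcripts gave 9 (16.9%) and library quality weights 13 (18.5%), all higher, and the replicate block 11 higher (17.5%) and 3 lower. The share of all transcripts that were lower was computed only for the main fit, so the lower counts of the other fits stand without one. Library groups did not overlap in 5 members higher in cKO (Mrpl20, Mrps6, Ndufaf1, Atp5c1 and Atp5f1) and in 1 lower (Mrpl45), against a background of 13.2% and 7.14%. In both counts Ndufaf1 entered the test only through its cKO libraries, all WT libraries being under 1 RPM.

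The differences were small, and their intervals were wide. The median log2 fold change was 0.12 over the mitoribosome genes, the same as the 0.12 over all tested transcripts, and 0.23 over the respiratory chain genes. Single oocytes moved these medians. Without WT replicate 3 they were 0.26 and 0.51, against 0.11 over all transcripts, and without WT replicate 2 they were 0.03 and 0.16, against 0.10. Without WT replicate 1 they were both 0.09, against 0.15, and without cKO replicate 4 they were 0.05 and 0.08, against 0.14. Without cKO replicate 2 they were 0.17 and 0.37, against 0.10. Fitted differences lay between -0.43 and 0.77 for the mitoribosome and between -0.67 and 1.07 for the respiratory chain. The 95% interval stayed within 2-fold in either direction for 32 of 51 mitoribosome genes and 29 of 75 respiratory chain genes, and reached past 2-fold for the other 19 and 46. A 2-fold difference in either direction was thus outside the interval for 61 of the 126 members (48.4%, against 42.3% of all tested transcripts) and inside it, in at least 1 direction, for the rest.

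**Figure D2:**
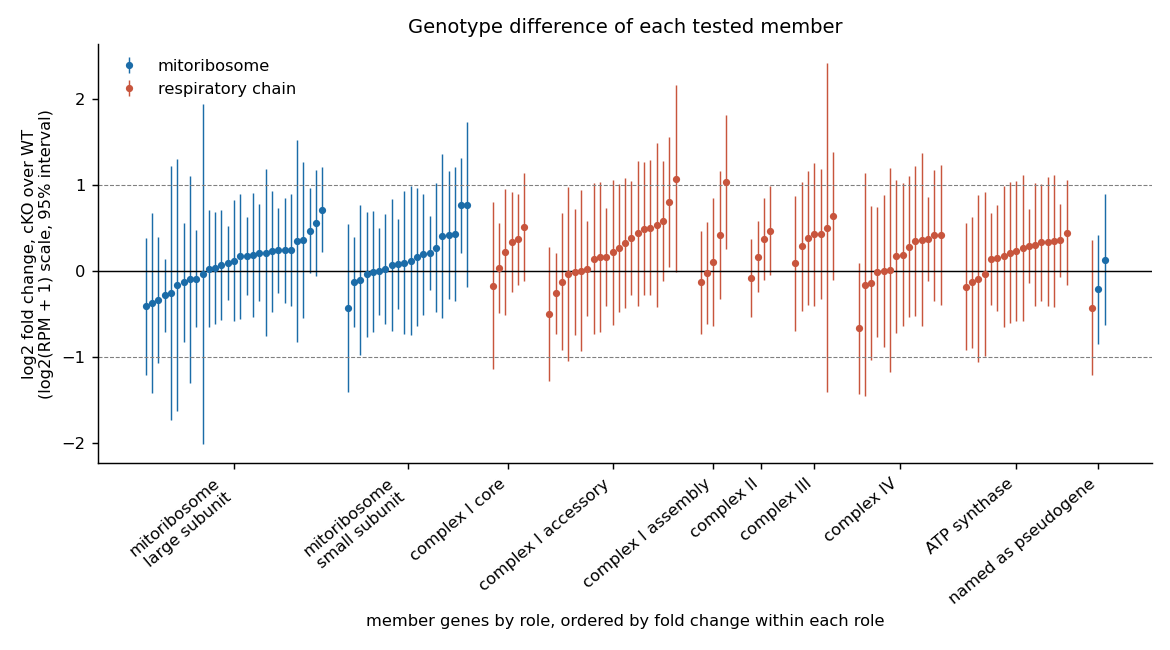
Log2 fold change of each tested member, Setd1b cKO over WT on the log2(RPM + 1) scale, with its 95% interval (limma), grouped by role and ordered within each role. Dashed lines mark 2-fold differences. All 126 estimates lie between -0.67 and 1.07, and 65 intervals reach past 2-fold.

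By role, and leaving aside Mrpl48-ps, Mrps36-ps1 and Uqcrh-ps1 (median -0.22), the medians ran from 0.10 for complex I assembly factors and the small mitoribosomal subunit to 0.42 for complex III. Large-subunit genes had a median of 0.12, with 19 of 29 above 0, and small-subunit genes had 14 of 20 above 0. Complex I accessory subunits (0.21, 16 of 21 above 0), core subunits (0.28, 5 of 6) and complex IV (0.18, 9 of 14) resembled ATP synthase (0.23, 13 of 17). Complex II had 3 of 4 above 0 and a median of 0.27, and here all 4 intervals stayed within 2-fold. All 7 complex III genes were above 0 in the main fit, from 0.09 to 0.64, yet the lowest adjusted p in that complex was 0.31 (limma). Uqcrh among them fell below 0 without cKO replicate 4 (-0.19), without WT replicate 1 (-0.12) and without WT replicate 2 (-0.0069). It also did so with each library centred on its median transcript (-0.067). Centring each library on its median transcript took the medians to -0.04 for the mitoribosome and 0.07 for the respiratory chain, and left 70 of 126 members above 0 in place of 90. Over all tested transcripts 10971 of 18179 lay above 0 in the main fit. Leaving out 1 library left 75 (without cKO replicate 4) to 98 (without cKO replicate 2) of the members above 0. Without both cKO replicate 4 and WT replicate 3, chosen after seeing the data, 99 were above 0. Centring took the median over all tested transcripts from 0.12 to -0.03. It shifts every transcript by the same amount, so the turned sign of the mitoribosome median follows from that shift alone. The respiratory chain median stayed above 0, being further from it before the shift. Neither is a test of these genes.

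The mitoribosome gene with the lowest p was Mrpl20, which encodes a large-subunit protein (chr4:155802867-155808847). It had 27.5, 31.0, 27.5 and 33.1 RPM in cKO and 16.4, 15.3 and 22.2 in WT, with no overlap. The log2 fold change was 0.71 ± 0.22 (SE), and the adjusted p in limma was 0.090. Mrps6, a small-subunit protein related to bacterial S6 (chr16:92058251-92112227), had 30.7, 28.0, 22.3 and 17.7 RPM in cKO and 14.4, 14.8 and 12.4 in WT. Its groups did not overlap either, at a log2 fold change of 0.76 ± 0.25 and an adjusted p of 0.10 (limma). Leaving out cKO replicate 4 alone took Mrps6 past the threshold, at 0.90 and an adjusted p of 0.041. Leaving out both cKO replicate 4 and WT replicate 3, a choice made after seeing the data, called Mrpl20 (0.81, adjusted p 0.040) and Mrps6 (0.83, adjusted p 0.047) in limma. Library quality weights with all 7 libraries called Mrpl20 (0.77, adjusted p 0.026) and Mrps6 (0.82, adjusted p 0.029) as well.

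The next 3 by p were Mrpl1, Mrpl41 and Mrps2, and their groups overlapped. Mrpl1, a large-subunit protein, had 104, 94.1, 115 and 140 RPM in cKO and 66.2, 83.6 and 95.1 in WT. Mrpl41 had 38.5, 38.1, 45.0 and 57.2 RPM in cKO and 27.0, 21.7 and 44.4 in WT. Mrps2, a small-subunit protein, had 12.7, 28.8, 11.7 and 15.4 RPM in cKO and 15.1, 11.6 and 3.93 in WT, so that 1 high cKO and 1 low WT oocyte carried its log2 difference of 0.77. Adjusted p lay between 0.26 and 0.34 for these genes (limma). Mrpl45, which docks the mitoribosome at the inner membrane, was the member with lower cKO libraries throughout, at 63.9, 63.4, 71.2 and 58.1 RPM against 76.9, 72.5 and 85.8 in WT. That difference was -0.29 on the log2 scale, with an adjusted p of 0.44.

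**Figure D3:**
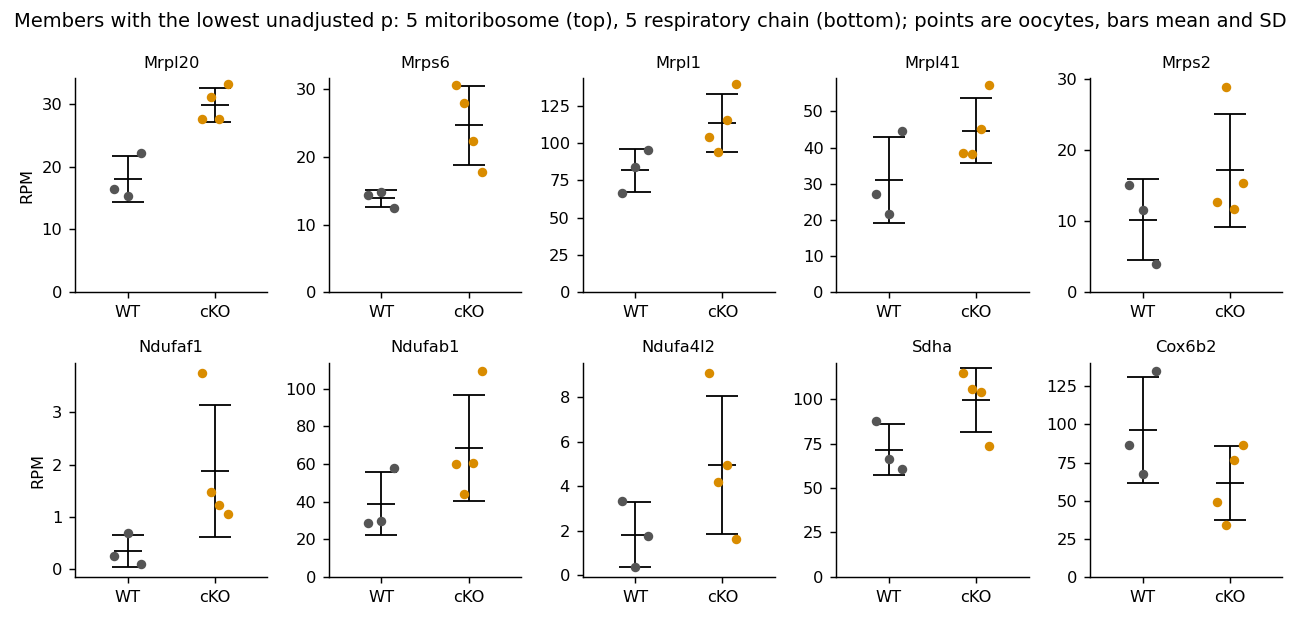
RPM in each oocyte for the 5 mitoribosome genes (top) and 5 respiratory chain genes (bottom) with the lowest unadjusted p. Grey points are WT (n = 3), orange points Setd1b cKO (n = 4), and bars give mean and SD. Only Mrpl20, Mrps6 and Ndufaf1 of these 10 show no overlap between genotypes, and none passed the adjusted threshold. Ndufaf1 met the filter on low levels only through its cKO libraries.

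In the respiratory chain the lowest p belonged to Ndufaf1, a complex I assembly factor that works in building the membrane arm (chr2:119655446-119663064). It was nearly silent in WT at 0.24, 0.69 and 0.09 RPM and had 3.76, 1.48, 1.22 and 1.05 RPM in cKO. The WT values of replicates 1 and 3 rest on 3 and 1 reads. Since only the 4 cKO libraries reached 1 RPM, Ndufaf1 met the filter through the group where it is high, and its p and the lack of overlap are partly fixed by that filter. The log2 fold change was 1.04 ± 0.35 with an adjusted p of 0.11 (limma). At this level the size is set by the RPM added, since it was 0.35 with 5 RPM added and 2.70 on the log2 RPM as deposited. Its promoter, shown above, carries ETS letters close to the start. Ndufab1, the mitochondrial acyl carrier protein, which is also a complex I subunit (chr7:122085403-122101932), had 59.9, 44.1, 60.6 and 109 RPM in cKO and 28.7, 29.5 and 58.1 in WT. The 2 values that cross, 44.1 and 58.1, leave the groups overlapping by a single library. Its log2 fold change of 0.80 ± 0.34 had an adjusted p of 0.20, and without cKO replicate 4 and WT replicate 3 it was 0.88 with an adjusted p of 0.023 (limma).

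Ndufa4l2, a paralogue of Ndufa4 known as a hypoxia-induced gene, had 9.10, 4.20, 4.96 and 1.63 RPM in cKO and 3.32, 0.39 and 1.78 in WT. The groups overlapped, and the 95% interval of its log2 difference ran from -0.02 to 2.16. Sdha, the flavoprotein that carries the succinate dehydrogenase active site, had 114, 106, 104 and 73.4 RPM in cKO and 87.6, 66.2 and 60.4 in WT, an overlap of 1 library. Atp5c1, the central stalk subunit gamma, had 156 to 203 RPM in cKO and 130 to 149 in WT. Atp5f1, subunit b of the side stalk, had 195 to 222 RPM in cKO and 143 to 185 in WT. The log2 differences of Atp5c1 and Atp5f1 were 0.29 and 0.35 with adjusted p of 0.44 and 0.33 (limma), so neither passed the test although the groups did not overlap.

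Several respiratory chain subunits exist as tissue isoforms, and the oocytes expressed a mixture. For subunit c of the ATP synthase ring, whose 3 genes encode the same mature protein, Atp5g1 led at 176, 183 and 404 RPM in WT and 189 to 485 in cKO. Atp5g2 had 62.9, 64.4 and 113 RPM in WT and 64.2 to 160 in cKO, and Atp5g3 24.1, 32.2 and 31.4 in WT and 23.1 to 36.7 in cKO. In cKO replicate 4 Atp5g3 was at its lowest among cKO oocytes and the other 2 genes were at their highest. Per kilobase, Atp5g1 was at 165 to 193% of Atp5g2 in cKO and at 179 to 227% in WT.

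For complex IV, Cox7a2 (252 to 794 RPM over both genotypes) was the abundant form of subunit 7A, while Cox7a1 had 0 to 0.94 RPM. Cox7a2l, a factor in joining complexes III and IV, had 296 to 403 RPM in WT and 369 to 537 in cKO. Cox7b had 113, 138 and 293 RPM in WT and 102 to 297 in cKO. Cox4i2, the isoform known from lung and oxygen-sensing cells, had 6.88, 18.1 and 11.5 RPM in WT and 12.9, 12.7, 14.4 and 24.002 in cKO. Cox8a, the ubiquitous form of subunit 8, had 47.2, 40.5 and 8.51 RPM in WT and 29.1, 49.2, 13.3 and 13.98 in cKO, and the testis form Cox8c 2.43 to 5.78 and 2.72 to 5.83. Cox6a1, the general form of subunit 6A, had 94.7, 86.6 and 21.9 RPM in WT and 90.6, 89.9, 46.2 and 28.0 in cKO.

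Cox6b2, known as the testis form of subunit 6B, was an abundant oocyte transcript and had the lowest fold change of the respiratory chain genes. It had 48.9, 34.3, 76.8 and 86.3 RPM in cKO and 86.6, 67.8 and 135 in WT, a log2 fold change of -0.67 ± 0.35 with an adjusted p of 0.30 (limma). The general form Cox6b1 had 142, 112, 206 and 301 RPM in cKO and 110, 118 and 240 in WT, a difference of 0.28. Per kilobase, Cox6b2 was at 28.0, 24.9, 30.3 and 23.3% of Cox6b1 in cKO and at 64.3, 46.9 and 45.8% in WT, with no overlap. The log2 ratio was -1.62 ± 0.17 (SD, n = 4) in cKO and -0.66 ± 0.27 (SD, n = 3) in WT. An exact two-sided permutation test over the 35 arrangements of the libraries gave p = 0.029, the smallest it can give, and 0.14 after adjustment over the 5 paralogue ratios computed. These ratios were chosen after the levels were seen. The Cox6b2 transcript and the annotated gene share under 50% of their joint span, which holds for 11 of the 129 members. The other 4 ratios (Cox8c to Cox8a and those among the Atp5g genes) had p of 0.54 to 0.94 by the same exact test.

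Members also differed between oocytes of the same genotype. The pair of cKO replicate 4 and WT replicate 3 was singled out after these values were seen, so the counts below describe it and are no test. In cKO replicate 4, 86 of 126 members were the highest of the 4 cKO oocytes, against 32.3% of all tested transcripts. In WT replicate 3, 90 were the highest of the 3 WT oocytes, against 37.8%. Both held for 81 members (64.3%), of which 29 were mitoribosome and 52 respiratory chain genes, against 22.2% of all tested transcripts. The median member was 0.73 (log2) above the mean of the other cKO oocytes in cKO replicate 4, and 0.62 above the other WT oocytes in WT replicate 3. Over all tested transcripts these medians were -0.06 and -0.02. The departure of cKO replicate 4 exceeded the genotype difference in size for 112 of 126 members (88.9%), and that of WT replicate 3 for 110 (87.3%), against 59.4% and 55.6% of all tested transcripts. Mrps33, for example, had 597, 495 and 874 RPM in the other cKO oocytes and 1236 in replicate 4, beside 498, 561 and 1081 in WT. Atp5j2, a membrane subunit of ATP synthase, had 249 to 431 and then 899 RPM in cKO, and 323, 337 and 742 in WT.

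**Figure D4:**
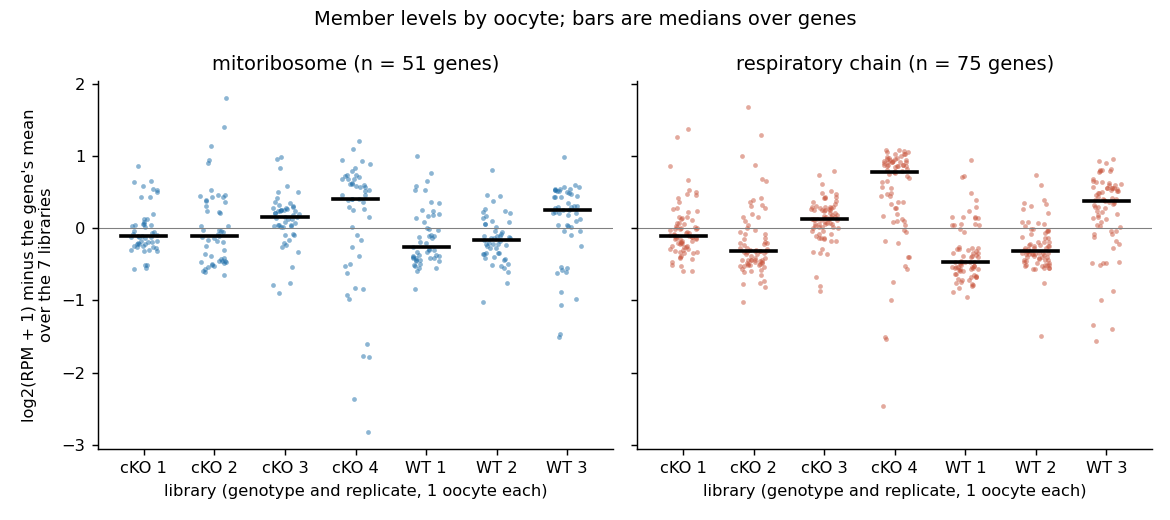
Level of each tested member in each oocyte, as log2(RPM + 1) minus the mean of that gene over the 7 libraries, for 51 mitoribosome genes (left) and 75 respiratory chain genes (right). Black bars are medians over genes. The medians are highest in cKO replicate 4 (0.41 and 0.78) and next in WT replicate 3 (0.25 and 0.37), and both oocytes also hold a tail of members far below 0.

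A smaller set went the other way. In both of those oocytes 15 members (11.9%) were the lowest of their genotype, against 25.2% of all tested transcripts. They were 8 mitoribosome genes (Mrpl10, Mrpl34, Mrpl37, Mrpl54, Mrpl57, Mrpl58, Mrps35 and Mrps6) and 7 respiratory chain genes, among them Atp5a1, Cox6a1, Sdha and Uqcrc1. Genes of this set named below were picked after their values were seen. Mrpl34, a large-subunit protein, had 72.0, 74.1 and 78.3 RPM in the other cKO oocytes and 4.66 in replicate 4, and 67.3 and 69.3 RPM in WT with 13.1 in replicate 3. Its level thus lay between 67.3 and 78.3 RPM in 5 oocytes and was far lower in the other two. Uqcrc1, a core subunit of complex III, had 14.8, 26.9 and 14.2 RPM in cKO replicates 1 to 3 and 0.58 in replicate 4, beside 13.3, 7.71 and 1.96 in WT. Mrpl58, a peptide release factor built into the large subunit, had 132, 116 and 151 RPM with 15.6 in cKO replicate 4, and 123, 115 and 58.2 in WT. Cox6a1, with its values above, was also lowest in those 2 oocytes.

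Other members were low in cKO replicate 4 but not in WT replicate 3. Mrpl4 had 92.6, 92.4 and 81.6 RPM and then 19.3 in cKO, beside 87.1, 72.8 and 79.1 in WT. Mrps12, a protein of the decoding centre, had 13.5, 14.7 and 17.8 and then 3.38 RPM, beside 14.2 to 15.4 in WT. Ndufs3, a complex I core subunit, had 54.2, 47.8 and 56.2 and then 12.8 RPM, beside 40.4 to 45.4 in WT. Mrpl52 followed, with 23.2 to 39.4 and then 5.01 RPM in cKO and 15.5 to 28.1 in WT.

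**Figure D5:**
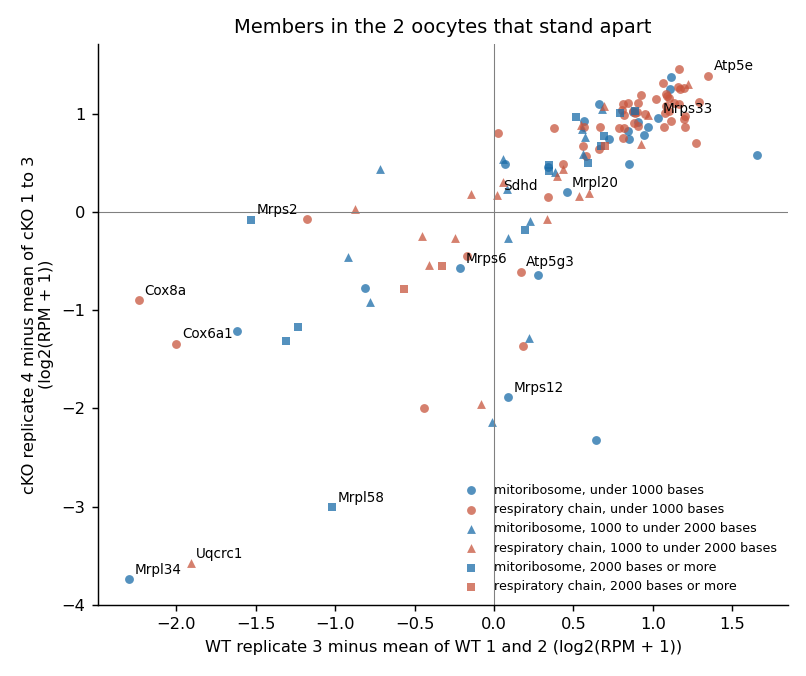
Departure of cKO replicate 4 from the mean of the other 3 cKO oocytes against that of WT replicate 3 from the other 2 WT oocytes, on the log2(RPM + 1) scale, for 126 members by machine (colour) and RNA length (shape). Most members lie above 0 on both axes, and a tail with Mrpl34, Uqcrc1, Cox6a1 and Mrpl58 lies far below 0 on both.

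Across the 126 members the departures of those oocytes ran together (Pearson r = 0.78, Spearman rho = 0.86), against r = 0.61 over all tested transcripts. Genes of 1 library are not independent replicates. Length went with the departures in the respiratory chain more than in the mitoribosome. The correlation with log2 length was -0.40 in both oocytes for the respiratory chain, and -0.004 in cKO replicate 4 and -0.22 in WT replicate 3 for the mitoribosome. Members under 1000 bases (77 genes) had medians of 0.87 and 0.85 in cKO replicate 4 and WT replicate 3, members of 1000 to under 2000 bases (33 genes) 0.20 and 0.22, and the 16 longer members 0.45 and 0.35. Named transcripts of the table under 1000 bases also stood above 0 in both, at 0.25 and 0.27. Those of 1000 to under 2000 bases stood below it, at -0.18 and -0.07, as did those of 2000 bases or more, at -0.23 and -0.20. The members were short (median 785 bases, against 2141 for named transcripts). In every length class, however, their medians lay above those of named transcripts of that length in both oocytes. With GC content the correlation was -0.30 and -0.25 over members, and 0.09 and 0.12 over named transcripts. After length and GC trends were removed from each library, which was added after seeing the data, 0 of 126 members were called (limma), against 779 of 11330 transcripts. At an unadjusted p under 0.05 that fit gave 6 members higher, against 13.3% of those transcripts, and 1 lower, for which no share was computed.

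Other genes of the organelle were read from 11 lists of mitochondrial functions. Subunits encoded in mitochondrial DNA (15 listed) had no row in the table. Of the 142 genes tested in the other lists, 2 were higher and 3 lower at an adjusted p of 0.05 (limma), beside 3.96% and 2.19% of all transcripts. Noa1, a GTPase needed to assemble the small mitoribosomal subunit, had 86.0, 52.7, 39.5 and 72.8 RPM in cKO and 16.5, 20.3 and 23.5 in WT, a log2 fold change of 1.55 ± 0.29 with an adjusted p of 0.012. Hsd17b10, a dehydrogenase that is also part of the mitochondrial RNase P, had 36.8, 34.8, 50.5 and 46.5 RPM in cKO and 9.07, 10.9 and 6.74 in WT, at 2.13 ± 0.25 with an adjusted p of 0.0028 (limma). Both rose, with no overlap between genotypes. Polrmt, the RNA polymerase of mitochondrial DNA, fell from 30.6, 17.3 and 15.4 RPM in WT to 7.13, 5.52, 5.75 and 6.87 in cKO, by 1.54 on the log2 scale (adjusted p 0.013, limma). Pdhx, the E3-binding protein of pyruvate dehydrogenase, fell from 493, 533 and 378 RPM to 183, 220, 213 and 111 (log2 fold change -1.39, adjusted p 0.015, limma). Esrrb, a nuclear receptor listed with regulators of mitochondrial genes, fell from 134, 125 and 175 RPM to 41.9, 33.5, 54.2 and 34.5 (-1.80, adjusted p 0.0036, limma). The calls of Noa1, Polrmt and Pdhx were lost without WT replicate 1 (adjusted p 0.061, 0.061 and 0.069), without WT replicate 2 (0.060, 0.051 and 0.085) and without a filter on low values (0.083, 0.059 and 0.096), with the direction unchanged.

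The remaining lists gave no call. That held for 8 mitochondrial aminoacyl tRNA synthetases, 12 respiratory chain subunits and carriers with other symbols, 30 assembly factors, 22 import and quality control genes, 17 fusion, fission and channel genes and 3 mitoribosome subunits with other symbols. Of these 92 genes, limma gave 8 higher and 2 lower at an unadjusted p under 0.05, beside the 14.2% and 7.52% of all transcripts, and voom called 0. Of the regulators, Nrf1 had 58.6 to 100 RPM in cKO and 49.5 to 101 in WT, a log2 difference of 0.07 with an interval of -0.55 to 0.69. Tfam, which packages mitochondrial DNA, had 6.76 to 34.4 RPM in cKO and 13.1 to 19.97 in WT, and Ppargc1a, a coactivator of mitochondrial biogenesis, was under 1.1 RPM in every oocyte.

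Some members rest on ambiguous reads. Among the 129, 6 carry pseudogene names and may share reads with related genes. Of these, 4 were tested, and Ndufb1-ps was kept with the complex I accessory subunits. Of the 126 tested, 32 overlapped a transcript of the opposite strand, and whether the counting used strand was not given in the sources used here. In these families, 9 symbols stood only on rows of the opposite strand and 4 isoforms had no row by the rule, so they were not analysed here (among them Ndufs1, Uqcrc2 and Cox4i1).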

How the data were processed

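RNA of single GV oocytes was amplified with a SMARTer kit and sequenced. The authors trimmed the reads, aligned them to GRCm38 with Hisat and counted them in SeqMonk over an oocyte transcript set with isoforms merged. The deposited values are log2 RPM, that is reads per 1000000 mapped reads on a log2 scale, 1 column for each of 7 libraries. Zero counts are entered as a fixed 0.9 reads. The values were turned back to RPM and to reads, and 100% came out whole within 0.1 reads. The submitters' processing notes also name bcl2fastq 1.8.4 and featureCounts 1.4.4, with no role given.

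Transcripts with at least 1 RPM in at least 3 of 7 libraries (18179) were tested with limma 3.58.1 in R 4.3.3 on log2(RPM + 1) with a trended prior, and p-values were adjusted by Benjamini-Hochberg over all of them. Calls used an adjusted p of 0.05. In data simulated on these libraries with 200 transcripts changed 4-fold, the fit was checked for recovery and sign. Differences were computed after adding 1 RPM, so those of low genes come out too small. Lengths and GC content came from GENCODE vM21, from the basic transcript of median length. Intervals and read floors cover counting error only where they rest on reads.

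Members and gene lists were chosen with earlier results of these data known. Named members were the 5 with the lowest unadjusted p in each machine (none passed the adjusted threshold), the most abundant per kilobase in each role, isoforms of complex IV and ATP synthase subunits, and genes of other lists past an adjusted p of 0.05 and 2-fold. Alternatives comprised pseudocounts of 0.1 and 5, the log2 values as deposited, no filter or a mean of 4 RPM, 3 other scalings, other variance models, limma-voom on reads, a replicate block, each library left out, and other thresholds. The replicate numbers do not pair the oocytes.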

Additional observations from a re-analysis of the deposited data

Results flagged for a closer look

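Of 35 named values examined in the 4 Setd1b cKO libraries, 2 held an oocyte far from the others by Dixon's ratio (the gap to the nearest value over the range, read against the 95% limit for 4 samples). By chance about 1 group in 20 would. Ndufaf1 had 3.76 RPM in cKO replicate 1 against 1.05 to 1.48 in the other cKO oocytes, a ratio of 0.840. Cox4i2 had 24.002 RPM in cKO replicate 4 against 12.7 to 14.4, a ratio of 0.851. Groups of 3, such as the WT libraries, were not examined in this way.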

How the results depend on the processing

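The count of 0 called members held in 14 of 18 alternatives other than leaving out 1 library. Of these 14, the 2-fold limit could not add a call, so its 0 was fixed in advance. Summing the rows of a gene altered only Mrps24 and Atp5o, and the limit to transcripts with an annotated length and GC left the members' values unchanged. Medians over members moved by less than the spread between cKO oocytes under every alternative fitted. Leaving out 1 library at a time gave 0 to 1 higher mitoribosome genes (1 without cKO replicate 4), 0 respiratory chain genes, 289 (without WT replicate 2) to 1439 (without cKO replicate 4) called transcripts against 1118, and 2 to 7 called genes of other lists against 5. Medians were then 0.03 to 0.26 for the mitoribosome and 0.08 to 0.51 for the respiratory chain. Library quality weights called 2 higher mitoribosome genes, 2325 transcripts and 11 genes of other lists. Testing without a filter called 427 transcripts and 3 genes of other lists, over 33437 rows. An adjusted p of 0.1 gave 1999 transcripts, 1 higher mitoribosome gene and 10 genes of other lists. With cKO replicate 4 and WT replicate 3 left out, added after seeing the data, there were 1922 transcripts, 2 mitoribosome genes and 1 respiratory chain gene higher, and 11 genes of other lists. The 11330 transcripts with an annotated length and GC, the reference for the removal of those trends, gave 649 calls. The cause of these differences was not tested beyond the number of genes and libraries entered.

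With the replicate number as a block, which leaves cKO replicate 4 without a partner, 1829 transcripts, 1 higher mitoribosome gene (Mrps6), 1 higher and 1 lower respiratory chain gene (Ndufa4l2 and Cox6b2) and 11 genes of other lists were called. Same-numbered oocytes correlated in their departures from the group means at 0.19, 0.29 and -0.13, and not every oocyte matched its own number best, so they share only a number. In that block fit, log2 fold changes turned sign for Ndufs7 (-0.0057), Uqcrh (-0.19), Cox7a2 (-0.16), Mrps33 (-0.075), Cox8a (0.061) and Atp5g1 (-0.064).

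Named genes near 0 also turned sign elsewhere, none of them called. Centring on the median transcript gave Uqcrh -0.067, Cox6a1 -0.15 and Atp5g3 -0.017, and quantile normalisation gave Atp5e 0.068 and Cox6a1 -0.009. A pseudocount of 5 gave Cox6a1 -0.0019, quality weights gave it -0.14, and scaling to reads within transcripts gave Cox8c 0.053. Without cKO replicate 4 and WT replicate 3, Atp5e was 0.0095, Cox6a1 -0.32 and Cox8c 0.0083. Over the fits that left out 1 library, the ranges were -0.44 to 0.36 for Atp5e, -0.0057 to 0.52 for Ndufs7, -0.19 to 0.39 for Uqcrh, -0.16 to 0.52 for Cox7a2, -0.075 to 0.51 for Mrps33, -0.66 to 0.38 for Cox6a1, -0.47 to 0.27 for Cox7b, -0.91 to 0.26 for Cox8a, -0.33 to 0.16 for Cox8c and -0.064 to 0.60 for Atp5g1. Depth limits genes near 1 RPM such as Ndufaf1, whose WT values rest on few reads.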
